A study of Mus musculus with 4 samples.

Results

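The genes of WNT and R-spondin signalling were examined in GCs (granulosa cells), the somatic layer that encloses and feeds the oocyte. The 10 genes were Wnt4, Rspo1, Lgr4, Lgr5, Znrf3, Fzd1, Fzd4, Axin2, Ctnnb1 and Sfrp4, chosen by name from the 55385 genes listed, and each matched 1 Ensembl identifier. Bulk RNA sequencing had been done on 4 libraries. Of these, 2 came from follicles cultured with neurotrophin-4 (NT-4, a ligand of the TRKB receptor) and form the NT4 group, and 2 came from follicles cultured in medium without it and form the Control group. Both groups shared everything else that the labels and methods give: Kunming mice, an outbred stock, at 12 to 14 days of age, and preantral follicles dissected from their ovaries and grown singly for 6 days in medium with FSH. By the methods, the GCs were the cells left after the oocyte had been released.

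WNT ligands bind a Frizzled receptor and an LRP co-receptor, which stops a cytoplasmic destruction complex from breaking down beta-catenin, so that beta-catenin can reach the nucleus and act with TCF and LEF proteins on target genes. R-spondins add to this by binding an LGR receptor and drawing away ZNRF3 and RNF43, the ubiquitin ligases that otherwise remove Frizzled receptors from the cell surface. In the ovary, Wnt4 and Rspo1 are known for their part in the development of the female gonad, and the pathway continues to act in growing follicles and in the corpus luteum.

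The libraries held 49520092 to 78704020 estimated counts. Low counts lay at multiples of 4 in 45.4% to 46.2% of genes with a count from 1 to 12, which was read as about 4 counts from each read pair. A gene at 0 could then still lie at up to 3 read pairs, or 0.152 to 0.242 CPM (the count of a gene scaled to the library total). This floor and the intervals on read pairs cover counting error only. All 12 granulosa markers checked lay above the floor in every library and summed to 12448 to 19057 CPM, led by the inhibin gene Inha. Oocyte markers summed to 63.6 to 94.6 CPM, theca and stroma markers to 1440 to 2099 CPM and surface epithelium markers to 692 to 915 CPM. Of the surface epithelium markers, Krt19 and Upk1b were at 0 in all 4 libraries and Aldh1a1 gave most of the sum, with a mean of 763 CPM. Markers of macrophages (1.87 to 2.95 CPM), endothelium (19.3 to 28.5 CPM) and erythroid cells (3.23 to 5.67 CPM) were low. In bulk RNA, fewer cells of a type and less RNA per cell cannot be told apart.

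The question put to each gene was whether its level differed between the NT4 and Control groups. Of the 10 genes, 0 passed an adjusted p of 0.05 in edgeR's quasi-likelihood test, against 0 of all 19259 genes tested (0.0%). An unadjusted p under 0.05 was found for 0 of the 10 and for 383 of all genes (1.99%). Over all genes, edgeR's exact test made 59 adjusted calls, the DESeq2 Wald test made 65 and limma voom made 0. The criterion of the study's methods asks for an unadjusted p under 0.05 and a change of over 2-fold either way. With the quasi-likelihood p it was met by 0 of the 10 genes and by 208 of all genes (1.08%). The study reported fewer such genes for these cells and does not say which edgeR test it used. The adjusted p was 0.9999 for each of the 10, and each log2 fold change was smaller than its own standard error (SE). By the study, the 2 libraries of a group came from separate experiments and the groups were cultured side by side, but the labels do not say which libraries share an experiment.

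**Figure D1:**
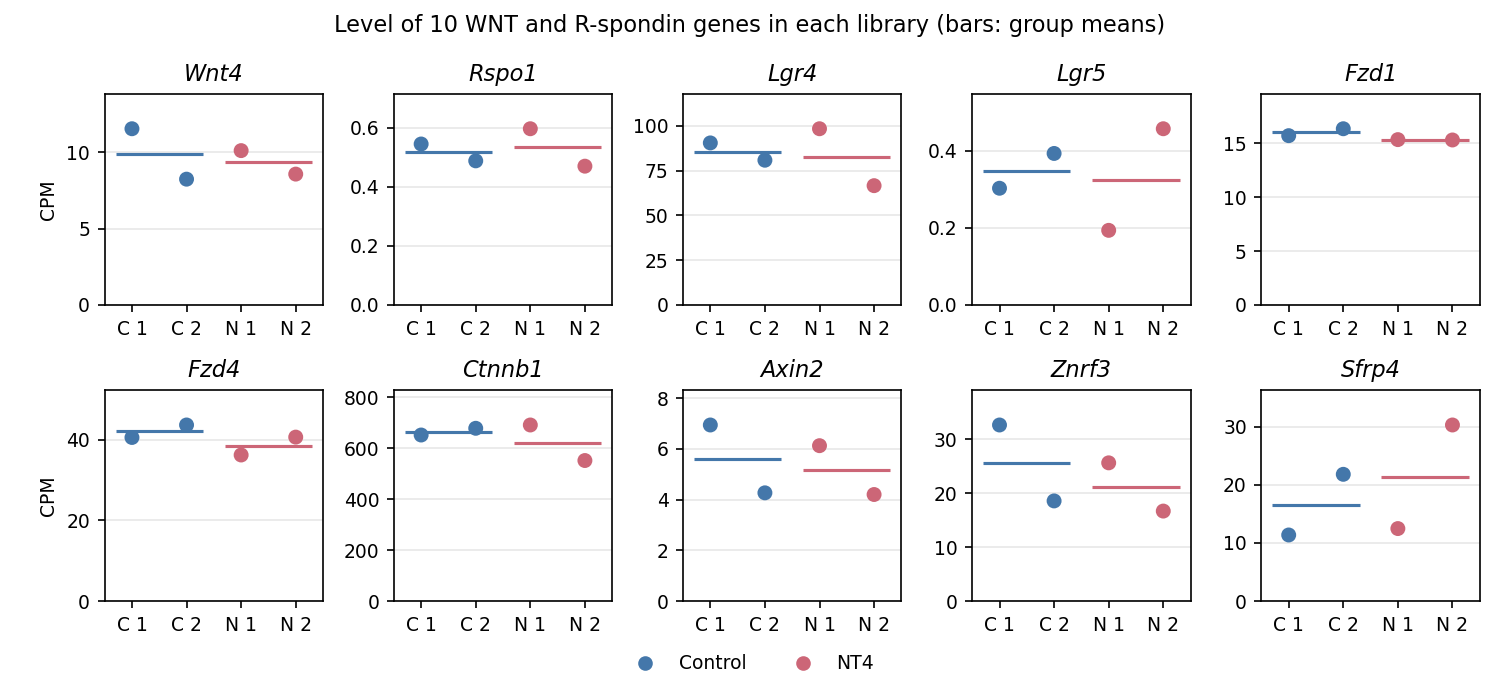
Level in CPM of each of the 10 genes in each library (C 1 and C 2 for Control, N 1 and N 2 for NT4), with a bar at the mean of each group and every axis starting at 0. Fzd1 is nearly level across the libraries, between 15.3 and 16.4 CPM, whereas Znrf3 and Axin2 are high in the libraries numbered 1 and Sfrp4 is high in those numbered 2.

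Both NT4 libraries lay above both Control libraries for 0 of the 10 genes, against 11.9% of all genes tested. Both lay below for 1 of the 10, Fzd1, against 14.6% of all genes. The other 9 overlapped between the groups. These orders, here and below, are in CPM on library totals. The normalization factors of the test (TMM) ran from 0.980 for NT4 2 to 1.014 for Control 1, which can turn a close order. With them applied, Fzd1 overlapped between the groups too. The estimates lay below 0 for 8 genes and above 0 for Rspo1 and Sfrp4. Their median log2 fold change was -0.06, beside 0.00 over all genes tested, and the median of its absolute size was 0.07, beside 0.15. At a mean CPM of 1 or more, where 8 of the 10 lay, these sizes were 0.09 and 0.11. The 95% intervals ran from as low as -1.99 to as high as 1.86, both for Lgr5.

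**Figure D2:**
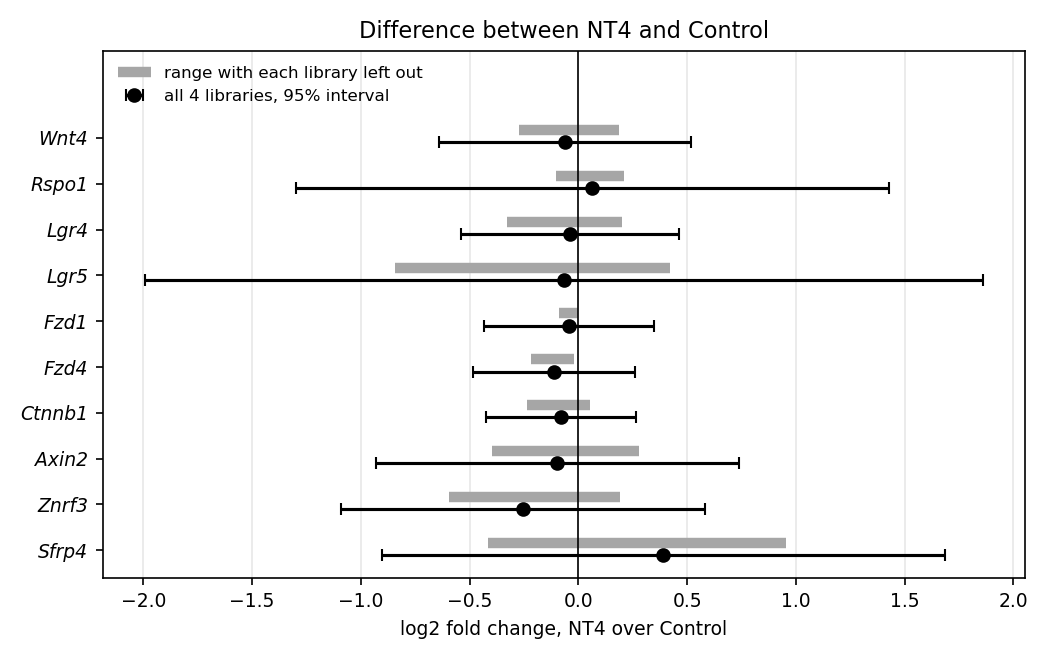
Log2 fold change of NT4 over Control for each of the 10 genes, as a point with its 95% interval from all 4 libraries, and a grey bar for the range of estimates when each library was left out in turn. All 10 intervals cover 0, and the grey bar crosses 0 for 8 genes and stays below it for Fzd1 and Fzd4.

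The start regions of the genes were read from RefSeq on GRCm38.p6, where 7 of the 10 genes matched, leaving Lgr5, Znrf3 and Sfrp4. The 250 bases before the start were searched for CTTTG and its other strand CAAAG, the core letters bound by TCF and LEF proteins. These letters were present in 48.6% of the 32851 windows of all genes. They were present in 1 of the 8 windows of the 7 genes, that of Fzd1, with 2 matches that began 241 and 37 bases before the RefSeq start. For Fzd1, Wnt4 and Ctnnb1, among others, the RefSeq start differs from the bounds of the gene printed below. The windows of Ctnnb1 overlap each other. The letters are rich in A and T, and the windows of the 7 genes held 51.2% to 85.2% G and C, with Fzd1 at the low end, beside a median of 52.4% over all windows. A match is a description of letters only. The window of Fzd1 is given because it alone held them, and that of Axin2 because Axin2 is the gene most widely used as a readout of beta-catenin. The windows are chr11:108920099-108920348 on the plus strand for Axin2 and chr5:4758217-4758466 on the minus strand for Fzd1, with the matched letters in capitals.

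Axin2: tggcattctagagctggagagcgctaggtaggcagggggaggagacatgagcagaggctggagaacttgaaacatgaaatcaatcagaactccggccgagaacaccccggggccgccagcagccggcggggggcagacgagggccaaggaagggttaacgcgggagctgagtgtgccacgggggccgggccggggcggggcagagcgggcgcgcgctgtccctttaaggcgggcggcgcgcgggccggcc

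Fzd1: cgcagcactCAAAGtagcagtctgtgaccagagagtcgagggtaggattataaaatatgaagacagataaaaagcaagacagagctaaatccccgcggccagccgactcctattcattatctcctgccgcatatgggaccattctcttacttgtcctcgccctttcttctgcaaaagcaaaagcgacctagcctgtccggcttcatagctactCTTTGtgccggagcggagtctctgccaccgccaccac

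Among the ligands, Wnt4 (ENSMUSG00000036856, GRCm38 chromosome 4, 137277489 to 137299726) was measured at 11.6 and 8.24 CPM in Control 1 and 2 and at 10.1 and 8.58 CPM in NT4 1 and 2. Control 1 was the highest library and Control 2 the lowest, with both NT4 libraries between them. On the log2 scale, NT4 over Control was -0.06 (SE 0.23, 95% interval -0.64 to 0.52, unadjusted p = 0.800, edgeR). Wnt4 was not the most abundant WNT ligand per kilobase of exon. That was Wnt6, which in each library stood 1.84 to 2.78 times as high as Wnt4 per kilobase. Wnt6 was measured at 11.1 and 10.03 CPM in Control 1 and 2 and at 12.6 and 12.5 in NT4 1 and 2. Both NT4 libraries were the higher ones, but the log2 fold change of 0.27 (SE 0.17) did not pass the test (unadjusted p = 0.164, edgeR). Of 19 WNT ligands listed, 9 had counts enough to be tested and Wnt1, Wnt3, Wnt3a, Wnt8b and Wnt9b were at 0 in all 4 libraries. Wls, the carrier that brings WNT proteins to the cell surface, stood at 97.8 to 109 CPM and overlapped between the groups.

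Rspo1 (ENSMUSG00000028871, chromosome 4, 124986430 to 125009099), a secreted R-spondin, was scarce. Its level was 0.545 and 0.488 CPM in Control 1 and 2 and 0.597 and 0.470 CPM in NT4 1 and 2. The NT4 libraries were the highest and the lowest, so the groups overlapped fully. These levels rested on 27, 36, 37 and 37 counts, or an estimated 6.75 to 9.25 read pairs. For Control 1 the 95% Poisson interval was 2.66 to 14.1 read pairs. The log2 fold change of 0.06 had an SE of 0.54 and an interval from -1.30 to 1.43, which does not exclude a change of 2-fold either way.

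Rspo2, another R-spondin, was the more abundant of the pair, at 1.35 to 2.71 times the level of Rspo1 per kilobase of exon within a library. It was measured at 3.90 and 2.71 CPM in Control 1 and 2 and at 2.13 and 2.46 CPM in NT4 1 and 2. Both NT4 libraries were the lower ones, and the log2 fold change was -0.50 (SE 0.31, unadjusted p = 0.169, edgeR). It was -0.23 without Control 1 and -0.72 without Control 2. Rspo3 was at 0 in every library and Rspo4 had counts in NT4 2 alone, below the floor.

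The LGR receptors, which hold R-spondins at the cell surface, were far apart in level. Lgr4 (ENSMUSG00000050199, chromosome 2, 109917647 to 110014257) was measured at 90.4 and 80.8 CPM in Control 1 and 2 and at 98.3 and 66.6 CPM in NT4 1 and 2. The NT4 libraries were again the highest and the lowest, and the fold change on the log2 scale was -0.04 (SE 0.20, 95% interval -0.54 to 0.46, unadjusted p = 0.861, edgeR).

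Lgr5 (ENSMUSG00000020140, chromosome 10, 115450311 to 115587780), known as a marker of stem cells in several epithelia and of cells in the ovarian surface, was close to the floor. It was measured at 0.303 and 0.393 CPM in Control 1 and 2 and at 0.194 and 0.457 CPM in NT4 1 and 2. NT4 1 was the lowest and NT4 2 the highest, and the counts behind them were 12 and 36, or an estimated 3.0 and 9.0 read pairs. Its log2 fold change was -0.07 with an SE of 0.76, the widest of the 10 genes, and its interval covered changes of more than 2-fold in both directions. Per kilobase of exon, Lgr4 stood 254 to 886 times as high as Lgr5 within a library, or 138 to 481 times when the length of the longest transcript was used. Lgr6 was close to Lgr4, which stood 1.06 to 2.02 times as high. Lgr6 was also the more variable of these, at 84.5 and 46.6 CPM in Control 1 and 2 and at 108 and 42.6 CPM in NT4 1 and 2.

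Znrf3 (ENSMUSG00000041961, chromosome 11, 5276324 to 5444847), the ubiquitin ligase that R-spondins draw away from Frizzled receptors, is itself a target of beta-catenin. The libraries gave it 32.7 and 18.6 CPM in Control 1 and 2 and 25.7 and 16.7 CPM in NT4 1 and 2. The libraries numbered 1 were the high ones in both groups, and the groups overlapped. The log2 fold change of -0.26 was the lowest of the 10 estimates (SE 0.33, 95% interval -1.09 to 0.58, unadjusted p = 0.475, edgeR). Without Control 1 the estimate turned to 0.19, and without Control 2 it was -0.60.

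Rnf43, the related ligase, had the same order of high and low libraries by number, at 3.07 and 1.75 CPM in Control 1 and 2 and at 2.78 and 1.44 CPM in NT4 1 and 2. The level of Znrf3 per kilobase of exon was 7.68 to 9.67 times that of Rnf43 within a library, a narrower range than either gene had alone.

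The Frizzled receptors had the narrowest spans of the 10 genes across libraries. Fzd1 (ENSMUSG00000044674, chromosome 5, 4753839 to 4758035) was measured at 15.7 and 16.4 CPM in Control 1 and 2 and at 15.3 and 15.3 CPM in NT4 1 and 2. Both NT4 libraries were the lower ones in CPM on library totals, although the highest library stood only 1.07 times as high as the lowest. With the TMM factors applied, NT4 2 lay above Control 1, so this order did not hold. Its log2 fold change was -0.04 (SE 0.15, 95% interval -0.43 to 0.35, unadjusted p = 0.784, edgeR).

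Fzd4 (ENSMUSG00000049791, chromosome 7, 89404355 to 89413134), a receptor needed for a working corpus luteum in mice, was measured at 40.5 and 43.6 CPM in Control 1 and 2 and at 36.2 and 40.6 CPM in NT4 1 and 2. The groups overlapped, with NT4 2 just above Control 1. The difference on the log2 scale was -0.11 (SE 0.15, 95% interval -0.48 to 0.26, unadjusted p = 0.487, edgeR), and Fzd4 stood 1.47 to 1.66 times as high as Fzd1 per kilobase of exon. Of the 10 Frizzled genes listed, 9 were tested and 0 passed. Both NT4 libraries were the lower ones for 4 of the 9, against 14.6% of all genes tested. These were Fzd1, Fzd7 and, named after their values were seen, Fzd3 and Fzd9. With the TMM factors applied, Fzd1 and Fzd7 overlapped between the groups, whereas Fzd3 and Fzd9 did not. Fzd7, the most abundant Frizzled per kilobase of exon in the mean over the 4 libraries, although Fzd2 stood above it in NT4 2, was measured at 44.3, 45.4, 44.3 and 37.4 CPM in Control 1, Control 2, NT4 1 and NT4 2. Lrp5, the most abundant co-receptor per kilobase of exon, stood at 199 to 211 CPM and overlapped between the groups.

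Axin2 (ENSMUSG00000000142, chromosome 11, 108920349 to 108950783), whose promoter is printed above, is a scaffold of the destruction complex that beta-catenin itself switches on. It was measured at 6.95 and 4.27 CPM in Control 1 and 2 and at 6.13 and 4.21 CPM in NT4 1 and 2. As for Znrf3, the libraries numbered 1 were high and those numbered 2 low in both groups. Its log2 fold change was -0.10 (SE 0.33, 95% interval -0.93 to 0.74, unadjusted p = 0.780, edgeR). Axin2 overlaps Gm11670 on the opposite strand, and whether the counting used strand is not stated. Axin1, its widely expressed relative, named after its values were seen, was far more abundant, at 23.0 to 35.0 times the level of Axin2 per kilobase of exon.

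Of the other members of the destruction complex, Gsk3a was the most abundant per kilobase of exon, at 171 to 196 CPM with overlap between the groups. Gsk3a overlaps 9130221H12Rik on the opposite strand. Apc, the scaffold whose loss frees beta-catenin in colon tumours, had the smallest p of the pathway list. Its libraries stood at 38.1 and 32.0 CPM in Control 1 and 2 and at 53.7 and 55.5 CPM in NT4 1 and 2. Both NT4 libraries were the higher ones, and the log2 fold change was 0.66 (SE 0.15, 95% interval 0.29 to 1.03). The unadjusted p was 0.0055 and the adjusted p 0.9999 (edgeR's quasi-likelihood test), so Apc did not pass over all genes. Other tests on the 4 libraries gave an unadjusted p of 0.0029 (edgeR's exact test) and 0.00029 (DESeq2 Wald test). With each library left out in turn its estimate lay between 0.55 and 0.78, and the unadjusted p rose to 0.0652 (edgeR) without Control 2. Theca and stroma markers also lay higher in both NT4 libraries for 6 of 10 genes, against 11.9% of all genes tested, with sums of 1481 and 1440 CPM in Control 1 and 2 and of 2099 and 1654 CPM in NT4 1 and 2. Their part in the values of Apc and Wnt6 was not tested.

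Ctnnb1 (ENSMUSG00000006932, chromosome 9, 120929216 to 120960507), which encodes beta-catenin, was measured at 652 and 679 CPM in Control 1 and 2 and at 692 and 552 CPM in NT4 1 and 2. NT4 1 was the highest library and NT4 2 the lowest, and the libraries did not part by number. For the groups, the log2 fold change was -0.08 (SE 0.14, 95% interval -0.42 to 0.26, unadjusted p = 0.583, edgeR). The interval lies within a change of 2-fold in either direction, as it does for Wnt4, Lgr4, Fzd1, Fzd4 and Axin2. Ctnnb1 overlaps Mir7090 on its own strand and Ulk4 on the opposite strand. Of its DNA-bound partners, Tcf7 was the most abundant per kilobase of exon, at 70.9 to 86.4 CPM, whereas Lef1, named after its values were seen, had at most 0.129 CPM in any library.

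Sfrp4 (ENSMUSG00000021319, chromosome 13, 19623104 to 19632994) encodes a secreted protein that binds WNT ligands outside the cell. Sfrp4 stood at 11.4 and 21.8 CPM in Control 1 and 2 and at 12.5 and 30.3 CPM in NT4 1 and 2. Here the libraries numbered 2 were the high ones in both groups, and the highest library stood 2.66 times as high as the lowest, the widest span of the 10 genes. The log2 fold change of 0.39 was the highest of the 10 estimates and had an SE of 0.51 (95% interval -0.90 to 1.68, unadjusted p = 0.479, edgeR). It turned to -0.42 without NT4 2 and to -0.01 without Control 1, and was 0.96 without Control 2. The related Sfrp2, named after its values were seen, was also high in the libraries numbered 2, at 3.01 and 7.19 CPM in Control 1 and 2 and at 4.11 and 7.57 CPM in NT4 1 and 2, whereas Dkk3, the most abundant secreted inhibitor per kilobase of exon, was measured at 33.8, 28.4, 41.5 and 28.6 CPM in the same order. Of 12 secreted inhibitors listed, Dkk1, Wif1 and Sfrp5 were at 0 in all 4 libraries.

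The levels of the 10 genes were set in order by mean CPM per kilobase of exon over the 4 libraries, with its SD. Ctnnb1 led at 124 ± 12.2, above 97.7% of the genes tested. Lgr4 followed at 14.3 ± 2.32, and no library of Lgr4 reached the lowest of Ctnnb1. Then came Fzd4 (5.98 ± 0.455), Sfrp4 (4.54 ± 2.12), Fzd1 (3.74 ± 0.115), Znrf3 (2.97 ± 0.922) and Wnt4 (2.29 ± 0.363), and each neighbouring pair among these 5 overlapped. Axin2 (0.979 ± 0.249), Rspo1 (0.271 ± 0.0297) and Lgr5 (0.0328 ± 0.0112) each lay below all libraries of the gene before them, and Lgr5 was above only 1.43% of the genes tested. With the length of the longest transcript Lgr5 stood at 0.0703, and no rank was taken at that length.

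**Figure D3:**
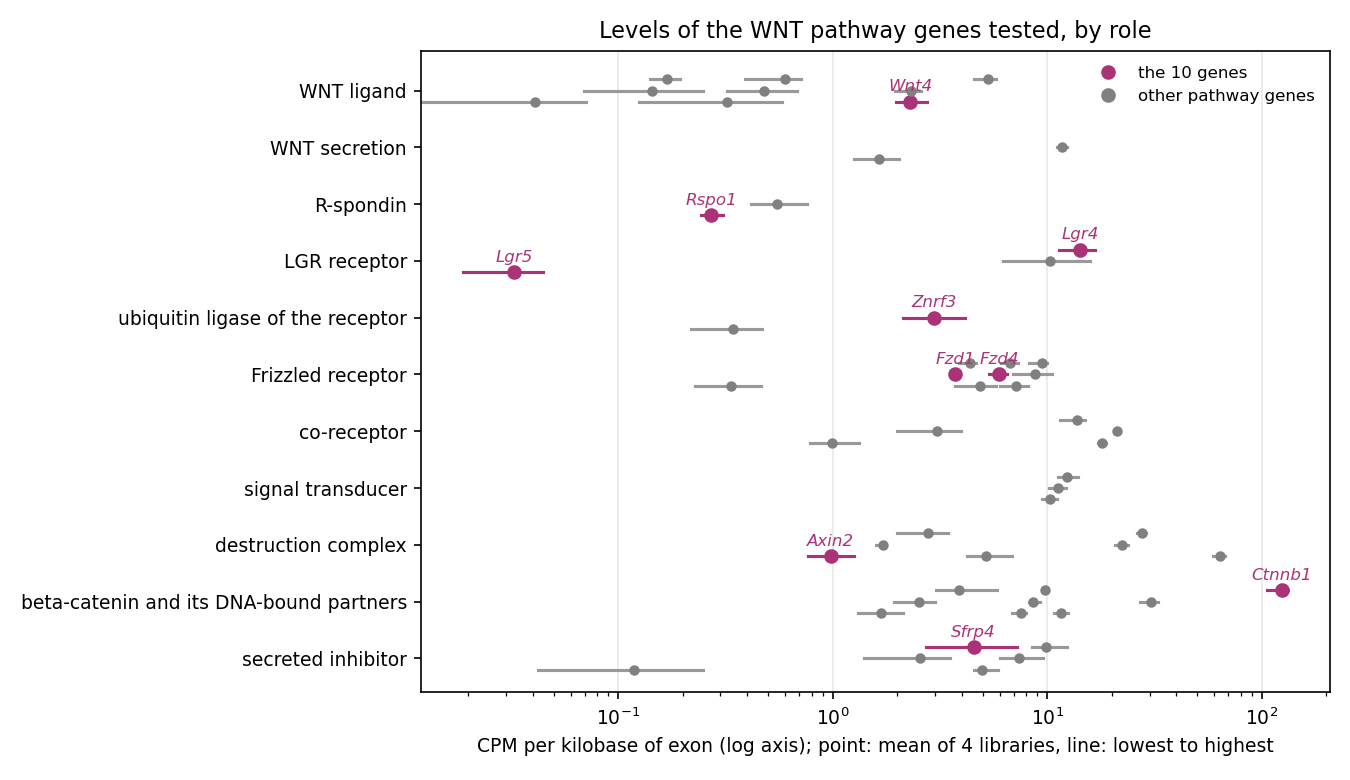
Mean CPM per kilobase of exon of every tested gene of the pathway list, on a log axis, by role, with a line from the lowest to the highest of the 4 libraries and the 10 genes in colour. Ctnnb1 lies furthest to the right at 124 and Lgr5 furthest to the left at 0.0328, with Lgr4 at 14.3 in the same row as Lgr5, and a line cut off at the left edge reaches 0.

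The split by library number was then described across the 10 genes. Both libraries numbered 1 lay above both numbered 2 for 5 of the 10, Wnt4, Rspo1, Lgr4, Axin2 and Znrf3, against 26.7% of all genes tested. They lay below for 3 of the 10, Lgr5, Fzd4 and Sfrp4, against 21.8% of all genes. Fzd1 and Ctnnb1 showed neither order. Within the Control group, library 1 stood 1.76 times as high as library 2 for Znrf3 and 1.63 times for Axin2. Within the NT4 group the same ratios were 1.54 and 1.46. For Sfrp4, library 2 stood 1.92 times as high as library 1 in the Control group and 2.43 times in the NT4 group. No test was made of this order, since the labels do not say what the number marks.

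The granulosa markers parted by number as well. In 10 of 12, against 21.8% of all genes tested, the libraries numbered 1 were the lower ones. The split was wide for Inhbb (1531, 2689, 1053 and 3157 CPM in Control 1, Control 2, NT4 1 and NT4 2). It was also wide for the aromatase gene Cyp19a1 (40.3, 65.5, 36.8 and 85.2 CPM). Gja1, at 1914, 1964, 1828 and 1952 CPM, and Nr5a2, at 597, 666, 578 and 630 CPM, parted far less. The exceptions were Amh and Kitl, where the libraries numbered 1 were the higher ones. Amh stood at 303, 151, 393 and 89.6 CPM and Kitl at 137, 114, 145 and 122 CPM. Of the 8 oocyte markers, 6 were higher in the libraries numbered 1, against 26.7% of all genes tested. The part of these markers in the levels of Axin2, Znrf3 and Sfrp4 was not tested.

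**Figure D4:**
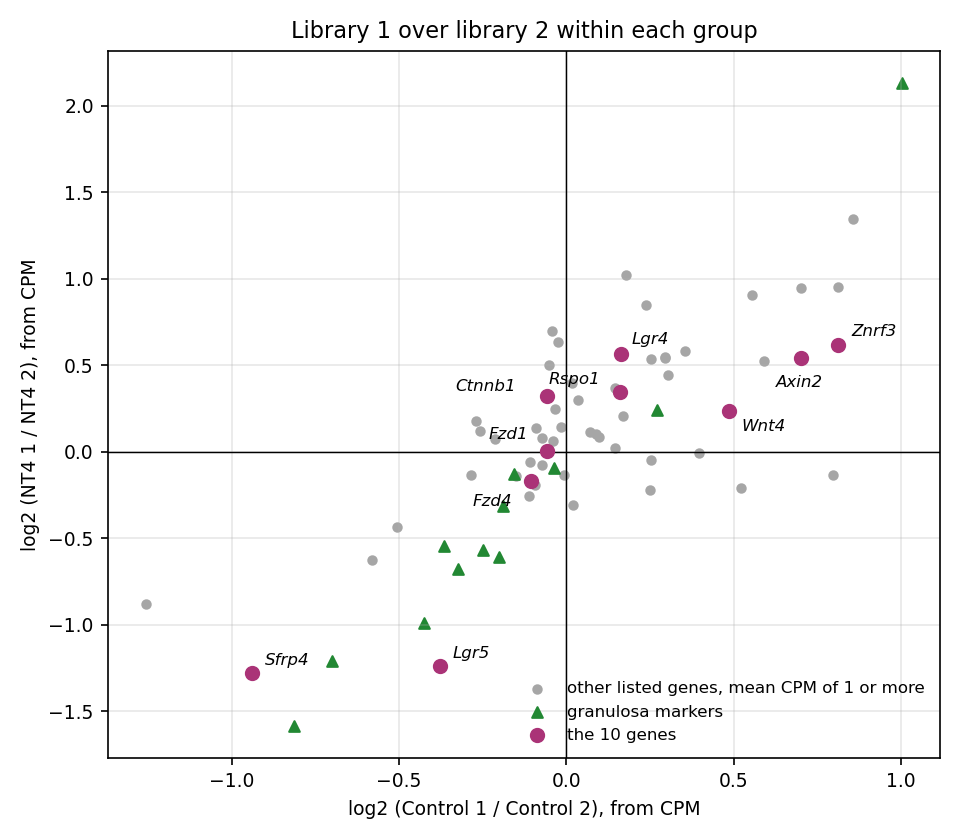
Log2 ratio of library 1 to library 2 in the NT4 group (vertical) against the same ratio in the Control group (horizontal), for the 10 genes, the other listed pathway and target genes with a mean CPM of 1 or more, and the 12 granulosa markers. Znrf3 (0.81 and 0.62) and Axin2 (0.70 and 0.54) lie at the upper right, and Sfrp4 (-0.94 and -1.28) lies at the lower left. Most granulosa markers share its quadrant, but several, such as Gja1 and Nr5a2, lie much nearer to where the centre lines cross.

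The wider pathway was read from a list of 77 genes in 11 roles, the 10 genes included. Of these, 57 were tested and 9 were at 0 in every library. None passed the adjusted threshold or the criterion of the study's methods, and Apc alone had an unadjusted p under 0.05. Both NT4 libraries were the higher ones for 5 of the 57 (8.77%) and the lower ones for 10 (17.5%), near the 11.9% and 14.6% of all genes. These counts were not repeated with the TMM factors, with which Fzd1, Fzd7 and other genes among the lower ones overlapped. The median log2 fold change was -0.03. By number, 23 of the 57 (40.4%) were higher in both libraries numbered 1 and 10 (17.5%) were lower, against 26.7% and 21.8% of all genes tested.

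A list of 17 genes often found to be switched on by beta-catenin, which also holds Axin2, Lgr5 and Znrf3, gave 12 tested genes and 0 calls. Sp5, Dkk1, Wif1 and Ascl2 were at 0 in all libraries. For 2 of the 12 targets both NT4 libraries were the higher ones, against 11.9% of all genes tested. These were Nkd1 and Nkd2, intracellular antagonists of the pathway named after their values were seen, with log2 fold changes of 0.37 (SE 0.23) and 0.39 (SE 0.33) that did not pass the test. Myc, the most abundant target per kilobase of exon in the mean over the 4 libraries, although Tcf7 stood above it in Control 2 and NT4 2, was measured at 121 and 82.4 CPM in Control 1 and 2 and at 128 and 68.2 CPM in NT4 1 and 2. Myc followed the same order by number as Axin2 and Znrf3. Of the 9 tested targets other than Axin2, Lgr5 and Znrf3, 4 had this order (44.4%) and 2 the opposite one (22.2%), against 26.7% and 21.8% of all genes tested.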

How the data were processed

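Reads had been filtered with Cutadapt and mapped with HISAT2 to the Ensembl v99 mouse genome (GRCm38), and expression was estimated by the authors with StringTie and ballgown. Each deposited file holds expected counts, estimated per gene, whole and not normalized. The step from StringTie to whole counts and the use of strand are not stated. The table of the series and the single-library files held identical counts in 4 of 4 libraries. Of 55385 identifiers, 55144 matched a symbol.

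Groups came from the labels. The counts went into edgeR 4.0.16 (R 4.3.3) and its quasi-likelihood test (TMM normalization, default filter on low counts, group alone, two-sided), with Benjamini-Hochberg adjustment over all 19259 genes tested. Fold changes set NT4 over Control on the log2 scale. CPM used library totals, and CPM per kilobase used the exon union of GENCODE M21, which also gave coordinates. Alternatives were run with edgeR, DESeq2 1.42.0 and limma 3.58.1. The procedure was tested on simulated data, which had the same dispersion for every gene and no split by library number.

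The 10 genes, the 77 pathway genes, the 17 targets and the 7 marker lists were chosen with earlier results of these data known. Beside the 10 genes, the text names the most abundant listed gene of each role per kilobase (mean of the 4 libraries), up to 10 listed genes with a mean CPM of at least 1, no overlap between groups and an absolute log2 fold change of at least 0.5, and others said to be named later. Fzd2, and listed genes named for standing at 0 or below the floor, were also named after their values were seen.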

Additional observations from a re-analysis of the deposited data

How the results depend on the processing

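For the 10 genes, 96 estimates from other normalizations, filters and tests on all 4 libraries kept their direction and 0 turned, whereas 14 of 40 turned with a library left out. Rspo1 and Lgr5 fell out under the stricter filter and with counts divided by 4. Left-out ranges of the log2 fold change were -0.27 to 0.19 for Wnt4, -0.10 to 0.21 for Rspo1, -0.33 to 0.20 for Lgr4, -0.84 to 0.42 for Lgr5, -0.088 to -0.00021 for Fzd1 (lowest without Control 1, highest without Control 2), -0.22 to -0.019 for Fzd4 (lowest without NT4 2, highest without NT4 1), -0.24 to 0.056 for Ctnnb1, -0.40 to 0.28 for Axin2, -0.60 to 0.19 for Znrf3 and -0.42 to 0.96 for Sfrp4. The direction turned without Control 1 for Wnt4, Lgr4, Axin2, Znrf3 and Sfrp4, without NT4 2 for these and Ctnnb1, without NT4 1 for Rspo1 and Lgr5, and without Control 2 for Lgr5. Among the genes named for their role, ranges that crossed 0 were -0.58 to 0.73 for Lgr6, -0.71 to 0.27 for Rnf43, -0.047 to 0.064 for Lrp5, -0.22 to 0.076 for Dvl3, -0.12 to 0.11 for Gsk3a, -0.087 to 0.23 for Tcf7, -0.088 to 0.42 for Dkk3 and -0.54 to 0.33 for Myc. Ranges that kept their direction were 0.21 to 0.33 for Wnt6, 0.039 to 0.12 for Wls and -0.23 to -0.019 for Fzd7. Those of Rspo2 and Apc are given above.

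Adjusted calls over all genes numbered 0, but 65 in the DESeq2 Wald test, 59 in edgeR's exact test, 10 with no filter and 0 to 37 with a library left out (12 without Control 1, 37 without Control 2). Genes meeting the study's criterion numbered 208, but 87 of 14490 tested under the stricter filter, 119 with counts divided by 4, 345 of 27099 with no filter, 312 in the exact test, and 341 to 512 with a library left out (406 without Control 1, 512 without Control 2, 341 without NT4 1, 392 without NT4 2). The cause was not tested.

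Lrp5 turned to -0.0086 with library totals. Gsk3a, at 0.0018, turned to -0.0033 under the stricter filter, -0.0024 with the DESeq2 Wald test and with its size factors, -0.0021 with counts divided by 4, -0.020 with library totals, -0.0016 with voom and with the replicate block, -0.00068 with no filter and -0.0028 with upper-quartile factors. With the length of the longest transcript, Lgr4 stood at 16.6, Lgr5 at 0.0703, Ctnnb1 at 178 and Axin2 at 1.26 CPM per kilobase.

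The libraries share replicate numbers only, and deviations of same-numbered libraries correlated at 0.14 (Pearson) and 0.26 (Spearman) over 19259 genes. With the replicate number as a block, 0 genes passed the adjusted threshold and 180 met the criterion, with Znrf3 at -0.23 (SE 0.14) and Sfrp4 at 0.33 (SE 0.16).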
